A study of Saccharomyces cerevisiae with 13 samples.

Results

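Translational efficiency was measured gene by gene in growing yeast, as the abundance of monosome footprints relative to that of the message. Monosome-seq sequences the piece of mRNA that a single ribosome shields from RNase I, and mRNA-seq of fragments of similar length gives the amount of the message itself. Cells of strain BY4742, a haploid MATα laboratory strain of Saccharomyces cerevisiae with the genotype his3Δ1 leu2Δ0 lys2Δ0 and a deletion of the uracil gene, were grown in YPD, a rich medium, at 30 °C. All 4 libraries share this strain and medium. The buffer used to extract ribosomes for monosome-seq held cycloheximide, while total RNA for mRNA-seq was taken by hot phenol. There were 2 replicates of monosome-seq and 2 of mRNA-seq, out of 13 libraries of a study that was built around disome-seq. The study calls its replicates biological. Whether they came from separate cultures is not given in the sources used here, so p-values measure only the spread between these libraries, which may be technical. A gene missing from a table was taken to have 0 counts. Of 5690 genes in the tables of both assays in both media, 5627 had a count in the rich medium and 5099 had enough counts to be tested.

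A ribosome starts on a yeast message by scanning from the cap to the first suitable AUG. Messages with an open path to that codon collect many ribosomes, while short upstream reading frames or folded leaders stop ribosomes before they reach it. The number of footprints per message is a density of ribosomes, and besides initiation the speed of elongation sets it. The codon bias of a gene, its upstream AUGs and the bases just before its start codon are the features most often tied to that density in yeast. Messages of glycolytic enzymes are known for dense ribosomes and GCN4 for sparse ones.

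The tables held 800994 and 606942 monosome footprints and 2256785 and 2836320 mRNA reads. Each table covers one class of read length, so these totals are not the depth of the sequencing. The 10 most abundant genes took 18.1% of the footprints in both monosome-seq libraries, against 12.7% and 13.0% of the mRNA reads. Levels are given in RPM, the usual reads-per-million unit, after TMM scaling, which makes the typical gene equal between libraries. The 4 α mating type genes examined were present, with at least 295 footprints in each library, and the 6 a-type genes had at most 1 footprint each over both monosome-seq libraries. LEU2 and LYS2 had no count. URA3, deleted by the stated genotype, had 138 and 181 mRNA reads and 35 and 21 footprints, which goes against that part of the genotype. HIS3 had 149 and 240 mRNA reads and 41 and 40 footprints.

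The bases in front of the start codon are shown for 3 of the genes with the highest ratios and 4 of those with the lowest, as the region from which the features of the start codon were read. Each run is 30 bases on the coding strand of R64 (RefSeq), 27 before the start codon and the codon itself, with every ATG in capitals.
TVS1, chrIII:225536-225565, plus strand, high ratio: ccaaccaaaaacaaaatagtgagagtaATG
DED1, chrXV:722884-722913, plus strand, high ratio: agaacaacaagaaaagcatttcatattATG
CPR5, chrIV:1072555-1072584, minus strand, high ratio: acaaaaggcacagcgatatccgcaattATG
GCN4, chrV:139761-139790, minus strand, low ratio: caagaaaataaattaaatacaaataaaATG
HAC1, chrVI:75152-75181, plus strand, low ratio: cccccacctacgacaacaaccgccactATG
THG1, chrVII:532594-532623, minus strand, low ratio: aagattctacttcctaATGcgagcgggATG
OST2, chrXV:516839-516868, minus strand, low ratio: aattgtaacgaggaatacATGactaatATG
THG1 had an ATG 11 bases and OST2 an ATG 9 bases before the start codon, the first out of frame and the second in frame with no stop codon between. Among the 10 genes with the lowest ratios only THG1 and OST2 had an ATG in the 27 bases before the start codon. The 4 low runs printed are therefore not typical of those 10. The 10 genes with the highest ratios had no ATG in the 50 bases before the start codon, while 4 of the 10 with the lowest had one. Of the genes tested, 17.7% had an ATG there on the coding strand.

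GCN4, the activator of amino acid synthesis genes, carries 4 short upstream reading frames that hold ribosomes back when amino acids are plentiful. A search of the 600 bases before its start codon for ATG followed in frame by a stop codon found 4 frames on the minus strand of chromosome V, printed with the start and stop codons in capitals.
GCN4 frame starting 361 bases upstream, chrV:140113-140124: ATGgcttgcTAA
GCN4 frame starting 293 bases upstream, chrV:140048-140056: ATGtgtTAA
GCN4 frame starting 176 bases upstream, chrV:139928-139939: ATGtacccgTAG
GCN4 frame starting 151 bases upstream, chrV:139903-139914: ATGtttccgTAA
None of the 4 lies in the 30 bases printed above, and the closest starts 151 bases before the codon.

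Translational efficiency varied more between genes than between replicates. Over the genes tested the middle 80% of log2 ratios ran from -1.21 to 0.82, a 4.08-fold range, and the quartiles were 2.01-fold apart. Among the 3876 genes that reached 10 counts in every library, the log2 ratio had an SD of 0.65 over genes (1.17 over all genes tested). Among the same 3876 genes the ratio from replicate 1 and the ratio from replicate 2 differed by a median of 0.21 on the log2 scale, and their correlation across genes, which are not independent replicates, was r = 0.85. In the quasi-likelihood test of edgeR, at a Benjamini-Hochberg adjusted p of 0.05, 1323 genes (25.9%) were higher in monosome-seq than in mRNA-seq and 1314 (25.8%) were lower. Among them 325 genes (6.37%) were at least 2-fold higher and 646 (12.7%) at least 2-fold lower. Both directions are about equally common because TMM centres the typical gene. Scaling by the table totals alone moved the median log2 ratio of all genes by -0.58 and gave 427 higher and 3135 lower, and the library totals that the study lists moved it by -0.49 and gave 509 and 2779. Directions below are therefore relative to the typical gene.

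**Figure D1:**
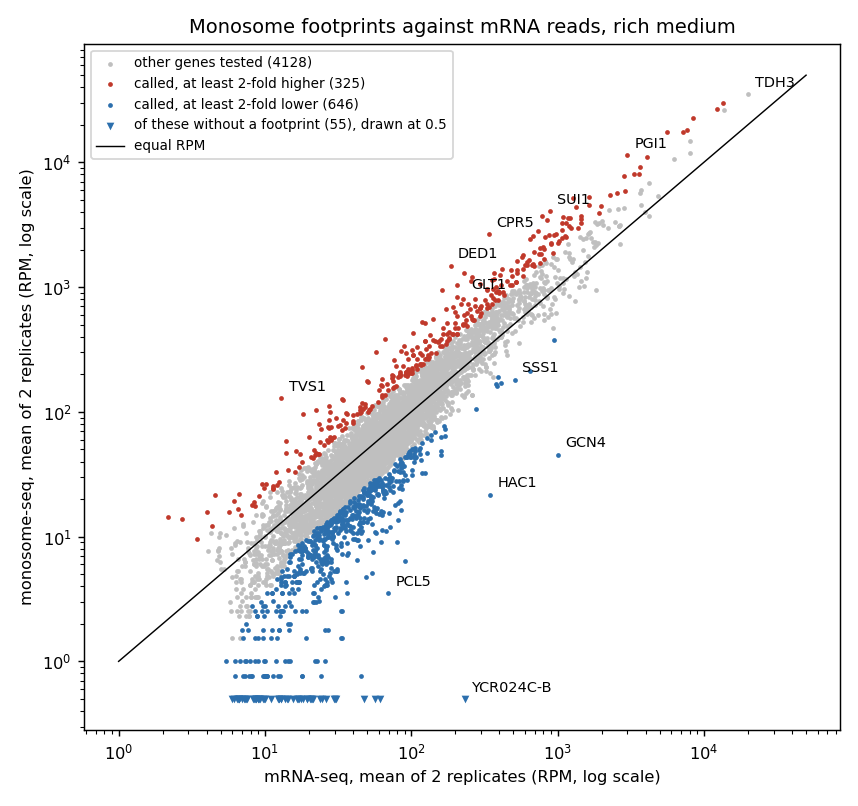
Mean RPM in monosome-seq (vertical) against mean RPM in mRNA-seq (horizontal) of the 5099 genes tested, both on log scales, with the 325 genes at least 2-fold higher in red and the 646 at least 2-fold lower in blue. The line marks equal RPM after TMM scaling, and the 55 tested genes without a footprint are drawn as triangles at 0.5; GCN4 and HAC1 lie far below the line at high mRNA levels.

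Among genes with at least 10 counts in each library, the 10 with the highest ratios carried 4.93 to 9.90 times the footprints that their mRNA level predicts under TMM scaling. TVS1 had 124 and 133 RPM in monosome-seq and 14.1 and 11.9 RPM in mRNA-seq, a fitted log2 ratio of 3.31 ± 0.21 (SE, edgeR adjusted p = 1.2e-53), on 39 and 41 mRNA reads. DED1, a DEAD-box helicase that helps the ribosome scan, had 1428 and 1549 RPM in monosome-seq and 214 and 159 RPM in mRNA-seq, a log2 ratio of 3.00 ± 0.09. CPR5, a prolyl isomerase of the endoplasmic reticulum, had 2871 and 2420 RPM in monosome-seq and 358 and 322 RPM in mRNA-seq, a log2 ratio of 2.96 ± 0.08. In all 3 genes both monosome-seq libraries lay above both mRNA-seq libraries, which the choice of genes required.

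The other 7 of the 10 highest genes had log2 ratios from 2.30 to 2.57. They were PAA1, a polyamine acetyltransferase, SRO9, an RNA-binding protein with a La motif, GLT1, glutamate synthase, DHH1, a DEAD-box helicase that promotes decapping, YPC1, a ceramidase, CHC1, the clathrin heavy chain, and TIM8, a small chaperone of the mitochondrial intermembrane space. GLT1 showed the pattern at high depth, with 822 and 662 footprints against 664 and 762 mRNA reads, although the mRNA-seq libraries were the larger ones. Its RPM values were 1260 and 1330 in monosome-seq and 240 and 220 in mRNA-seq.

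**Figure D2:**
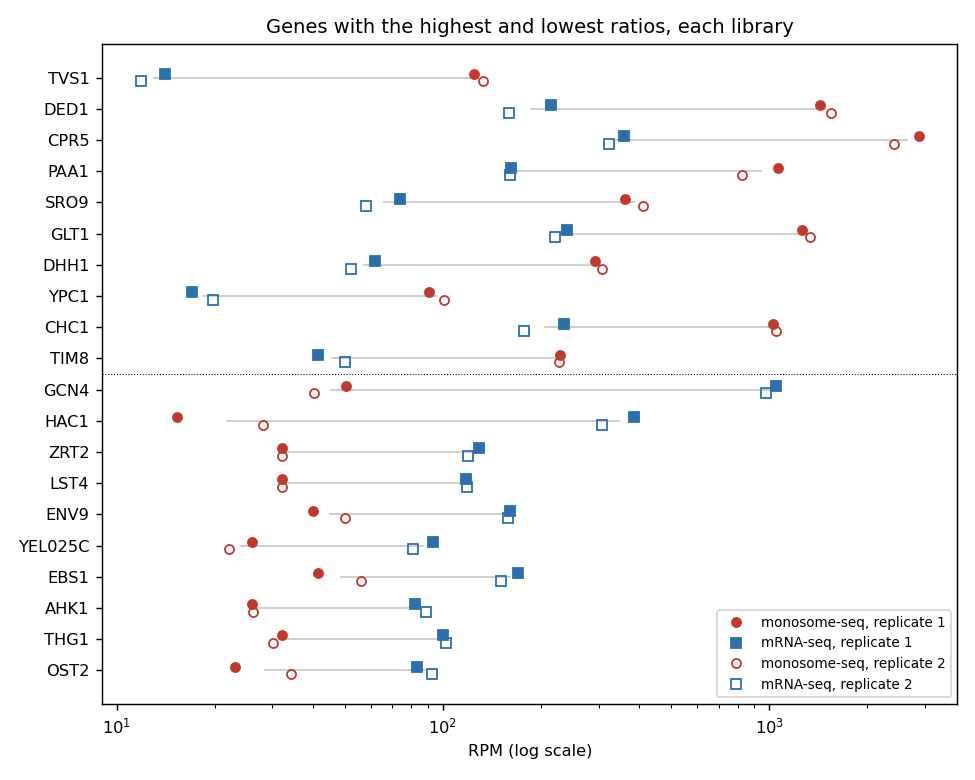
RPM (log scale) in each of the 4 libraries for the 10 genes with the highest ratios (above the dotted line) and the 10 with the lowest, circles for monosome-seq and squares for mRNA-seq. The 2 assays do not overlap in these genes, as their choice required, and the gap is widest for GCN4, HAC1 and TVS1.

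GCN4 and HAC1 stood apart from all other genes with at least 10 counts in each library. GCN4, at chrV:138918-139763 on the minus strand with 1 coding exon, had 2907 and 3388 mRNA reads but only 33 and 20 footprints. Its RPM values were 50.6 and 40.2 in monosome-seq and 1049 and 980 in mRNA-seq, 22.0-fold fewer footprints than the message predicts (log2 ratio -4.46 ± 0.14, edgeR adjusted p = 8.8e-199). HAC1, at chrVI:75179-76147 with 2 coding exons, encodes the activator of the unfolded protein response, and its message is known to be held untranslated until its intron is removed. It had 15.3 and 28.1 RPM in monosome-seq and 385 and 308 RPM in mRNA-seq, 16.5-fold fewer footprints (log2 ratio -4.04 ± 0.20).

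After these 2 genes the next lowest with at least 10 counts in each library was ZRT2, a zinc transporter, at -1.94 ± 0.21, with 32.2 and 32.1 RPM in monosome-seq against 129 and 119 RPM in mRNA-seq. LST4, needed for the sorting of an amino acid permease, ENV9, YEL025C, EBS1, AHK1, a scaffold protein of osmotic signalling, THG1, which adds the guanine to histidine tRNA, and OST2, a subunit of the oligosaccharyltransferase, ran from -1.88 to -1.66. Each had at least 11 footprints in either library.

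Genes whose footprints fell under 10 in a library could be lower still. PCL5, a cyclin made under the control of Gcn4, had 2 footprints in each library against 198 and 236 mRNA reads, or 3.07 and 4.02 RPM against 71.5 and 68.2 RPM (log2 ratio -4.30 ± 0.41). PHO80, the cyclin that represses the phosphate response, had 0 and 1 footprint against 56 and 83 mRNA reads (log2 ratio -4.58 ± 0.76). With so few footprints the size of these ratios is loose.

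In all, 364 genes had mRNA reads and no footprint in either replicate. Their median was 7 mRNA reads over both libraries, so for most of them a footprint was not detectable at this depth. Only 21 of them had more than 100 mRNA reads, of 4589 genes with that many. Among the 364, 153 genes (42.0%) have no gene symbol, against 8.37% of all genes with a count. The 82 that the monosome-seq table lists at 0 and the 282 that it does not list were treated alike.

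A count of 0 allows up to 3 footprints over both libraries, or 2.61 RPM. On that basis YCR024C-B, with 696 and 735 mRNA reads, was at least 88.1-fold lower in monosome-seq, YER186C at least 23.5-fold lower, CNM1 at least 21.7-fold lower, YOL029C at least 18.2-fold lower and YJL213W at least 11.8-fold lower. YCR024C-B starts 79 bases from the end of PMP1, on the same strand, and PMP1, a regulator of the plasma membrane proton pump, carried 10472 mRNA reads per kilobase of coding sequence against 5360 for YCR024C-B. Whether reads from the end of the PMP1 message were counted there was not tested. SSA3, a stress-induced Hsp70, had 93 and 90 mRNA reads and no footprint.

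Glycolysis and the making of ethanol were the most efficiently translated group. Of 19 genes tested 18 were higher and none lower, 13 of them at least 2-fold, where 25.9% of all genes were higher, and 17 stayed higher by the table totals. The median log2 ratio was 1.24, against -0.06 for all genes tested. PGI1, the isomerase of the second step, had 11766 and 11157 RPM in monosome-seq and 3003 and 2962 RPM in mRNA-seq (log2 ratio 1.94 ± 0.08). PFK2 and PFK1, the subunits of phosphofructokinase, followed at 1.93 and 1.61. TDH3, a glyceraldehyde-3-phosphate dehydrogenase, had the most footprints and the most mRNA reads of any gene, with 36063 and 34436 RPM against 20700 and 19174 RPM. Its log2 ratio was 0.82 ± 0.08. Only 52.8% of the 28-nt stretches of TDH3 occur once in the coding sequences, while at least 90% do in 13 of the 19 genes. PDC5, the minor pyruvate decarboxylase, did not pass the test (0.13 ± 0.31). As a share of the table totals the 20 genes of the list with a count took 12.8% ± 0.17 of the mRNA reads and 18.8% ± 0.04 of the footprints (SD, n = 2), with no overlap.

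**Figure D3:**
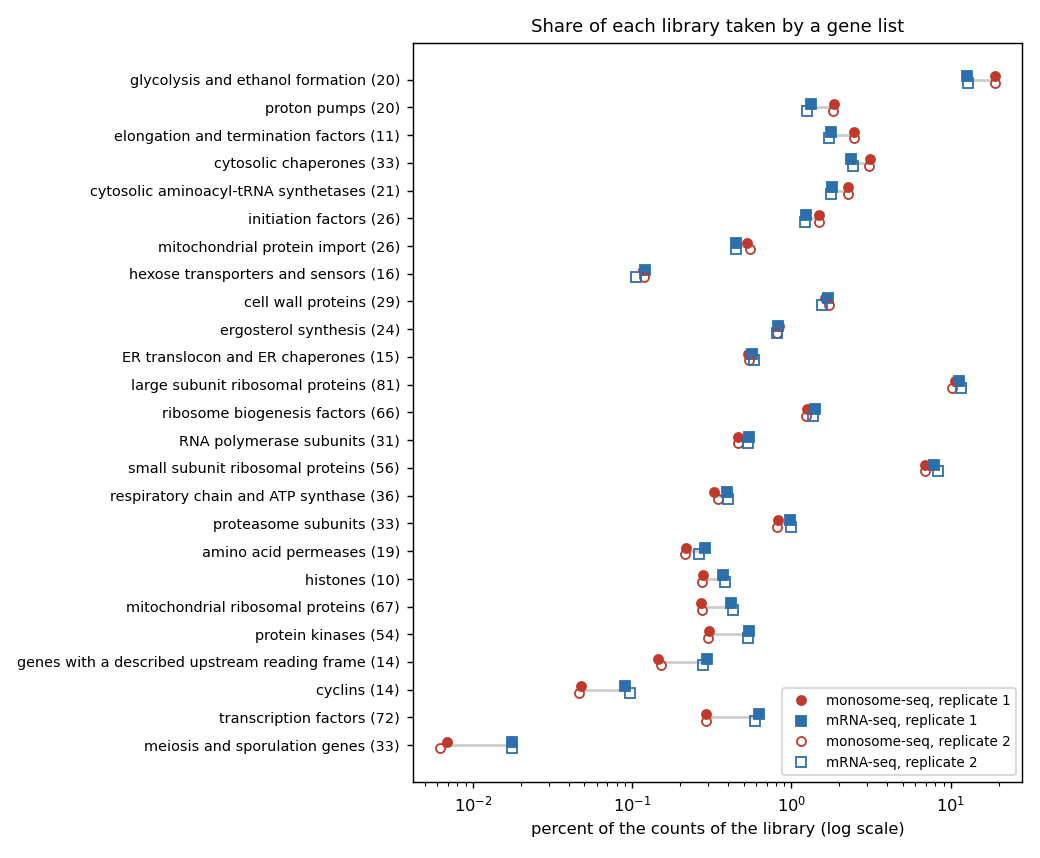
Percent of the counts of each library (log scale, by the plain table totals) taken by each gene list, circles for monosome-seq and squares for mRNA-seq, with the number of genes with a count in brackets. Glycolysis goes from 12.8% to 18.8%, while transcription factors go from 0.610% to 0.291%. Within the transcription factors GCN4 alone goes from 0.124% of the mRNA reads to 0.0038% of the footprints, and HAC1 from 0.0419% to 0.0017%. By the table totals the median log2 ratio of all genes tested is -0.64.

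The enzymes that charge tRNAs in the cytosol came next. Of 21 genes 19 (90.5%, against 25.9% of all genes) were higher and none lower. Their median was 0.89 (11 higher and 3 lower by the table totals). SES1, which charges serine tRNA, was highest, with 2861 and 2491 RPM in monosome-seq against 975 and 989 RPM in mRNA-seq (log2 ratio 1.45 ± 0.08). WRS1, the enzyme for tryptophan, at -0.04 ± 0.10, and GRS1, for glycine, at 0.12 did not pass the test.

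Initiation factors differed among themselves. Of 26 genes 16 (61.5%) were higher and 4 (15.4%) lower, against 25.9% and 25.8% of all genes. Their median was 0.50 (6 higher and 10 lower by the table totals). After DED1 came SUI1, eIF1, which guards the choice of start codon, with 4164 and 4017 RPM in monosome-seq against 879 and 904 RPM in mRNA-seq (log2 ratio 2.20 ± 0.08). NIP1, a subunit of eIF3, was at 1.55 and TIF4632, an eIF4G, at 1.34. The 4 lower genes were GCD7 and GCD1, subunits of the exchange factor eIF2B, at -0.53 and -0.45, and TIF35 and TIF34, small subunits of eIF3, at -0.36 and -0.29.

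Of 11 elongation and termination factors 6 (54.5%) were higher and 2 (18.2%) lower, against 25.9% and 25.8% of all genes. Their median was 0.23 (3 higher and 7 lower by the table totals). HYP2, eIF5A, which eases peptide bond formation at prolines, was at 1.71, YEF3, the fungal elongation factor 3, at 1.63 and SUP35, the termination factor eRF3, at 1.40. TEF1, elongation factor 1A, was at -0.31 ± 0.09, but only 4.15% of its 28-nt stretches occur once in the coding sequences, so its reads cannot be told from those of TEF2.

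Ribosomal protein genes were called in both directions, more often higher. Of 56 small subunit genes 25 (44.6%, against 25.9% of all genes) were higher and 14 lower, with a median of 0.12, and of 81 large subunit genes 39 (48.1%) were higher and 20 lower, with a median of 0.15 (by the table totals 4 higher and 41 lower, and 14 higher and 50 lower). The largest values were those of RPS8A at 2.03 ± 0.08 and RPL39 at 1.73 ± 0.08, and the smallest those of RPS30B at -1.58 ± 0.11 and RPL41A at -1.31 ± 0.09. Only 20.7% of the 28-nt stretches of RPS8A, 71.5% of those of RPS30B and 17.6% of those of RPL41A occur once, while all those of RPL39 do. At least 90% occur once in 29 of the 56 small subunit genes and 29 of the 81 large subunit genes. The genes that assemble the ribosome were more uniform, with 33 of 66 higher and 3 lower and a median of 0.29 (8 higher and 36 lower by the table totals). RRP5, required for both subunits, was highest at 1.42.

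Protein folding and degradation lay above the typical gene. Of 33 cytosolic chaperones 27 were higher and 1, SSA3, was lower, with a median of 0.66 (11 higher and 6 lower by the table totals). HSP82, an Hsp90, had 1830 and 1788 RPM in monosome-seq against 591 and 567 RPM in mRNA-seq (log2 ratio 1.65 ± 0.08). Of 33 proteasome subunits 21 were higher and 2, RPN13 and PRE1, were lower, but none of the 21 reached 2-fold, and by the table totals none was higher and 16 were lower. Of 15 genes of the endoplasmic reticulum 5 were higher and 4 lower (2 and 8 by the table totals). The 5 and the 4 are 33.3% and 26.7% of the list, against 25.9% and 25.8% of all genes. ERO1, an oxidase for disulfide bond formation, KAR2, the Hsp70 of the lumen, and SEC61, the channel subunit, were higher at 1.11, 1.01 and 0.76. SSS1 and SBH1, the small membrane subunits of the channel, were lower at -1.49 and -1.41. SSS1 had 185 and 177 RPM in monosome-seq and 499 and 521 RPM in mRNA-seq.

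At the cell surface 18 of 26 cell wall proteins (69.2%) were higher and 2 (7.69%) lower, against 25.9% and 25.8% of all genes. Their median was 0.59 (8 higher and 7 lower by the table totals). SCW4, a glucanase of the wall, was at 2.14 ± 0.09, TIR1 at 2.02 and PIR1, a cross-linked wall protein, at 1.84. Of 20 genes of the proton pumps 11 (55%) were higher and 2 (10%) lower (7 and 11 by the table totals). VMA2, a subunit of the vacuolar pump, had 3592 and 3322 RPM in monosome-seq against 868 and 828 RPM in mRNA-seq (log2 ratio 2.03 ± 0.08), and PMA1, the pump of the plasma membrane, was at 1.34. Only 6 of 20 hexose transporter genes could be tested. The transporters HXT1, HXT2 and HXT3 were higher at 0.50, 0.74 and 0.74, with none of the 6 higher by the table totals, whereas the glucose sensors RGT2 and SNF3 were lower at -1.36 ± 0.48 and -1.19. Of 16 amino acid permeases 7 (43.8%) were higher and 2 (12.5%) lower (1 and 9 by the table totals).

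The mitochondrial groups differed. Of 26 genes of protein import 13 (50%) were higher and 5 (19.2%) lower (6 and 12 by the table totals). They ran from TIM17 at -1.27 to TIM8 at 2.30. Of 36 nuclear genes of the respiratory chain and ATP synthase 15 (41.7%) were higher and 4 (11.1%) lower. Their median was 0.29 (5 higher and 14 lower by the table totals). Of 67 mitochondrial ribosomal proteins 10 (14.9%) were higher and 14 (20.9%) lower, against 25.9% and 25.8% of all genes. The median of the list was -0.15, against -0.06 for all genes, and lay above that of all genes without monosome-seq replicate 1. None of the 10 reached 2-fold, and by the table totals none of the list was higher and 41 were lower. Ergosterol synthesis had 14 of 24 genes (58.3%) higher and 2 (8.33%) lower (4 and 9 by the table totals). ERG13, HMG-CoA synthase, was highest at 1.54.

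In the lists of regulators more members were lower than higher. Of 67 transcription factors 11 (16.4%) were higher and 20 (29.9%) lower, against 25.9% and 25.8% of all genes. Their median was -0.24 (3 higher and 45 lower by the table totals). PHO2, a homeodomain factor, was highest at 1.57 ± 0.20, and GCR1, the activator of glycolytic genes, was among the lowest at -1.72. Of 54 protein kinases 6 (11.1%) were higher and 19 (35.2%) lower (none and 42 by the table totals). They ran from MKK1, a kinase of the cell integrity pathway, at -1.90 ± 0.29 to TOR1 at 0.82. Of 14 cyclins 1 (7.14%), PCL1, was higher at 0.39 and 5 (35.7%) were lower (none and 10 by the table totals). PCL1 turned to -0.20 by the table totals.

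**Figure D4:**
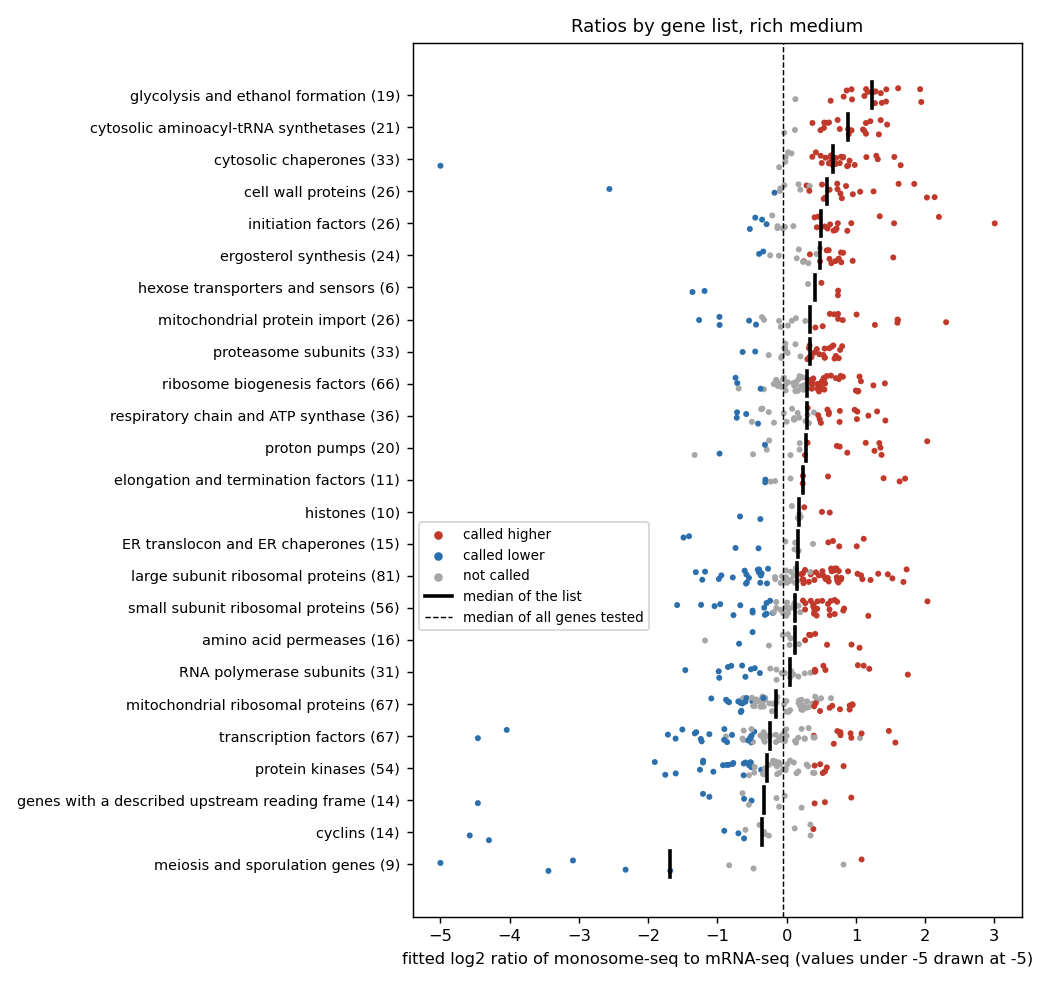
Fitted log2 ratio of every tested member of each gene list (points, red for called higher, blue for called lower, grey for not called), with the median of the list as a bar and the median of all genes tested as a dashed line. Numbers in brackets are the members tested. Glycolysis has its median at 1.24 and the meiosis and sporulation genes, 9 of 35 tested, at -1.68. Genes can pass the count filter on mRNA reads alone, as IME2 did. With at least 10 counts in each library only 1 meiosis gene was tested, at 0.96 relative to all genes. By the table totals the median of all genes would lie 0.58 further to the left.

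Of 14 genes with a described upstream reading frame 3 (21.4%) were higher and 5 (35.7%) lower, against 25.9% and 25.8% of all genes. By the table totals 1 was higher and 10 were lower. The 5 lower under TMM scaling were GCN4, CPA1, PPR1, CLN3 and YAP1. CLN3 passed narrowly (log2 ratio -0.62 ± 0.28, edgeR adjusted p = 0.0493) on 18 and 12 footprints. CPA1, the arginine-regulated subunit of carbamoyl phosphate synthetase, had 55.2 and 32.1 RPM in monosome-seq against 113 and 97.2 RPM in mRNA-seq (log2 ratio -1.21 ± 0.20). YAP1, of the oxidative stress response, was at -0.51 ± 0.17. CAD1, its relative, at -0.03 ± 0.26 and INO2, of phospholipid synthesis, at -0.64 ± 0.40 did not pass the test, and TIF4631, an eIF4G, was higher at 0.93. The 3 genes read through a programmed frameshift, OAZ1 at -1.03 ± 0.47, EST3 at -0.89 ± 0.44 and ABP140 at -0.12 ± 0.11, did not pass the test.

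Of 35 genes of meiosis and sporulation 9 could be tested. Of the 9, 1 (11.1%) was higher and 5 (55.6%) lower, against 25.9% and 25.8% of all genes. IME1, the inducer of meiosis, was higher at 1.08 ± 0.35 on 13 and 16 footprints. IME2, the kinase gene that it induces, had no footprint against 28 and 28 mRNA reads, and so passed the count filter on mRNA reads alone. IME1 did not pass by the table totals (0.50), by DESeq2 (1.13) or without replicate 2 of monosome-seq (0.74) or of mRNA-seq (0.91). The list median of -1.68, the same with IME2 at its bound of 3 footprints, lay 1.62 below that of all genes, but 0.11 above it without mRNA-seq replicate 2, when 4 members could be tested.

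Genes rich in favoured codons were the more efficiently translated ones. The codon adaptation index, which scores how far a gene uses the codons of ribosomal protein genes, had a Spearman rho of 0.44 with the log2 ratio over 5098 genes. With the genes ranked by the index and cut into 5 equal groups, the median log2 ratio went from -0.49 in the lowest group over -0.34, -0.16 and 0.14 to 0.47 in the highest. Of the top group 18.6% of genes were at least 2-fold higher and 2.84% at least 2-fold lower, and of the bottom group 1.57% and 22.8%. These are descriptions across genes that share the same 4 libraries and carry no p-value.

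The message level went the same way. With the level taken from one mRNA-seq replicate and the ratio from the other, the rho of the log2 ratio with mRNA reads per kilobase was 0.34 and 0.36. Coding length had a rho of 0.01 and the GC content of the coding sequence one of 0.13.

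An ATG close in front of the start codon went with fewer footprints. The 904 genes with an ATG on the coding strand in the 50 bases before the start codon had a median log2 ratio of -0.45, against 0.01 in the 4194 without, and 26.1% of them were at least 2-fold lower against 9.75%. The median was -0.71 where the nearest ATG began 1 to 25 bases before the start codon, -0.32 at 26 to 50 bases, -0.05 at 51 to 100 bases, 0.05 further out up to 200 bases and 0.11 where there was none in 200 bases. The position of the transcript's 5′ end was not used here, so some of these ATGs may not be in the message.

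Among those 904 genes the ATG nearest the start codon was out of frame without a stop in 431 (median -0.52), was closed by a stop before the start codon in 425 (median -0.43) and was in frame without a stop in 48 (median -0.22). Genes with an upstream ATG had lower codon bias, and the part of this in their lower ratios was not tested. In the lowest of the 5 groups of codon bias the medians were -0.64 with and -0.42 without an ATG, in the second -0.71 and -0.25, in the third -0.36 and -0.09, in the fourth 0.00 and 0.15, and in the highest 0.33, on 59 genes, and 0.47. The quartile ranges overlapped in every group.

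**Figure D5:**
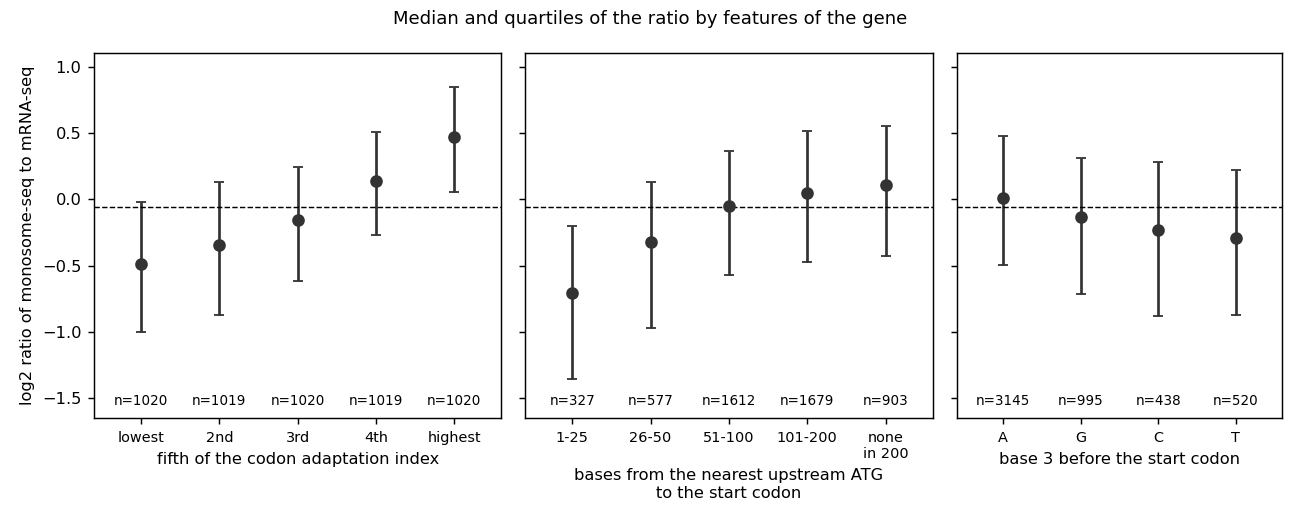
Median (points) and quartiles (bars) of the log2 ratio in 5 equal groups of codon adaptation index, by the distance of the nearest upstream ATG and by the base 3 before the start codon, with the number of genes under each. The dashed line is the median of all genes tested; the medians go from -0.49 to 0.47 with codon bias and from -0.71 to 0.11 with the distance of the ATG.

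The bases next to the start codon differed too. Genes with A at the position 3 bases before it, the commonest base there with 3145 genes, had a median log2 ratio of 0.01, against -0.13 for G, -0.23 for C and -0.29 for T. The share of A in the 10 bases before the start codon had a rho of 0.13 with the ratio and the share of G one of -0.14.

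The extremes showed the same features. Of the genes at least 2-fold higher 6.77% had an ATG in the 50 bases before the start codon, 72.6% had A at the position 3 bases before it and the median codon adaptation index was 0.299. Of the genes at least 2-fold lower 36.6% had such an ATG, 49.3% had that A and the median index was 0.177. The lower genes were also the less abundant ones, with a median of 181 mRNA reads over both libraries against 906. They had a median of 11 footprints over both libraries against 435. Of them 55 had no footprint and so passed the count filter on mRNA reads alone. Others with few footprints, such as PHO80 with 0 and 1, passed in the same way. With at least 10 counts in each library 216 genes were at least 2-fold lower and 213 at least 2-fold higher. The shares given here were not taken from that smaller set. No gene symbol was given for 11.3% of the lower genes, against 5.53% of all genes tested.

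Most of these genes kept their direction in the other monosome-seq and mRNA-seq libraries of the study, from strain S288C in medium without histidine with 3-AT, a blocker of histidine synthesis. Strain, medium and drug differ together from the libraries above. Of the 307 genes at least 2-fold higher in the rich medium that were tested in both, 225 were higher there and 16 lower, and of the 528 at least 2-fold lower, 351 were lower and 20 higher, where 25.3% of all genes tested in 3-AT were higher and 26.2% lower. HAC1 was at -4.07 in 3-AT, whereas GCN4 was at -0.97 ± 0.10, with 957 and 889 RPM in monosome-seq against 1880 and 1731 RPM in mRNA-seq.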

How the data were processed

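Monosome-seq and mRNA-seq of BY4742 in YPD were used, 2 replicates each, with the 3-AT libraries of S288C for the last comparison. The authors removed the 3-nt random sequence and the adaptor, discarded rRNA reads and aligned what remained to R64 coding sequences (the submitters' processing notes name cutadapt 1.16, Bowtie 1.2.2 and TopHat2 2.1.1). The deposited tables hold whole-number counts per gene without normalization, of 20 to 30 nt reads for monosome-seq and 28 to 29 nt reads for mRNA-seq. The methods state that reads aligning to several places were dropped and that reads alike in sequence, length and random tag entered the counts a single time. The table totals nevertheless exceed the uniquely mapped reads that the study lists, and whether both steps preceded the deposited tables was not settled here.

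Genes were joined by systematic name, and 5685 of 5690 matched R64 (RefSeq). edgeR 4.0.16 in R 4.3.3 was fitted to the 4 libraries, with TMM factors and filterByExpr on the groups. Genes were tested by quasi-likelihood, and p-values were adjusted over all genes tested by the Benjamini-Hochberg method at 0.05. RPM use effective library sizes, and SE derive from the test statistic. On simulated data for this comparison, with 5014 genes, 73.7% of 2-fold and 96.0% of 4-fold changes were recovered. Designs of 2 against 2 leave permutation tests no chance to pass 0.05, so these were left out. The floor of 3 counts covers counting error only, and reads amplified by PCR are not independent molecules.

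The codon adaptation index used 132 ribosomal protein genes as reference. The share of 28-nt stretches that occur once marks genes whose reads cannot be told from those of a copy. Genes named are the 10 highest and 10 lowest called genes with at least 10 counts in each library and no overlap of RPM, the translational control examples, the deleted genes, the extremes of each list, the 5 genes with most mRNA reads and no footprint, and the most abundant gene. Other members named as examples were chosen after their values were seen. The gene set and the lists were chosen with earlier results of these data known. Alternatives were DESeq2 1.42.0, its size factors in edgeR, totals alone, other filters, a replicate block, leaving out each library, genes with at least 90% unique stretches, single replicates and genes with at least 100 mRNA reads for the features, and, added after seeing the data, the library totals the study lists. Analyses used Python 3.11.15, numpy 2.4.6, pandas 2.3.3, scipy 1.17.1 and matplotlib 3.10.9.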

Additional observations from a re-analysis of the deposited data

Results flagged for a closer look

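Among the genes named by rule, the only ones searched, 3 had libraries of the rich medium and of 3-AT on opposite sides, with every monosome-seq library below both mRNA-seq libraries in the rich medium and above both in 3-AT. The difference itself was not tested here. ATP4, a stator subunit of the ATP synthase, had a log2 ratio of -0.72 in the rich medium and 2.09 in 3-AT. MUP3, a low-affinity methionine permease, had -1.18, which did not pass the test, and 1.43. ERG8, phosphomevalonate kinase of ergosterol synthesis, had -0.40 and 0.67. Strain, medium and drug differ together between these libraries and cannot be told apart.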

How the results depend on the processing

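Scaling moved the calls most. With no scaling beyond the table totals, 427 genes lay higher and 3135 lower, of which 75 and 1649 by at least 2-fold, and by the totals the study lists, an alternative added after seeing the data, 509 and 2779, with 92 and 1449. PCL1 (-0.20 and -0.10) and MF(ALPHA)2 (-0.15 and -0.052) then changed sign. In 3-AT the totals gave 698 higher and 2184 lower in place of 1186 and 1228. DESeq2 called 999 higher and 559 lower in place of 1323 and 1314, and 397 at least 2-fold lower in place of 646. With at least 10 counts in each library 3876 genes were tested, of which 213 were at least 2-fold higher and 216 at least 2-fold lower. That filter removes genes with few footprints. The 646 genes at least 2-fold lower had a median of 11 footprints over both libraries, against 435 for those at least 2-fold higher. Leaving out 1 library gave 1056 to 1242 higher, 874 to 1120 lower, 312 to 348 at least 2-fold higher and 546 to 641 at least 2-fold lower. The lowest count of lower genes, 874, was that without monosome-seq replicate 1. The SD of the log2 ratio over genes was 1.17, and 1.45 with no filter, 0.65 with at least 10 counts in each library, 1.04 by DESeq2 and 1.06 to 1.55 without 1 library. The rho with the codon adaptation index was 0.42 from replicate 2 of both assays and 0.48 with at least 100 mRNA reads, and that with the mRNA level 0.36 with the replicates exchanged. Of the 26 lists compared with at least 5 members tested, 19 had a median above that of all genes, and 18 to 20 under each alternative. The hexose transporter median lay below that of all genes in the 4 members with at least 90% unique stretches and without a filter, and that of the RNA polymerase subunits with at least 10 counts in each library and without monosome-seq replicate 2. The meiosis median turned from -1.62 relative to all genes to 0.11 without mRNA-seq replicate 2 (4 members) and to 0.96 with at least 10 counts in each library (1 member), and that of the mitochondrial ribosomal proteins from -0.088 to 0.063 without monosome-seq replicate 1. With the replicate block 1311 genes were higher and 1266 lower. Whether the replicate numbers pair the samples is not known. No label ties them, and the deviations of same-numbered libraries correlated by 0.05, which cannot settle it since counting noise lowers such a correlation. Genes with few footprints limit the low end, and 3 footprints over both libraries correspond to 2.61 RPM.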

Other observations

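Of 31 RNA polymerase subunit genes 9 (29.0%) were higher and 10 (32.3%) lower, close to the 25.9% and 25.8% of all genes tested. By the table totals 4 were higher and 19 lower. The largest subunits of the 3 enzymes, RPO21 of polymerase II at 1.75 ± 0.09, RPA190 of polymerase I at 1.19 and RPO31 of polymerase III at 1.03, and the second largest, RPB2 at 0.53, RPA135 at 0.41 and RET1 at 0.41, were all higher in monosome-seq than the typical gene. RPO21 had 716 and 745 RPM in monosome-seq and 235 and 200 RPM in mRNA-seq. The other 3 higher genes were RPC19 at 1.11, RPC37 at 0.56 and RPA14 at 0.41. The lowest values were those of RPC11 at -1.46 ± 0.28, RPB8 at -0.98, RPC25 at -0.97 and RPB7 at -0.85, and RPC82 was also lower at -0.46. These genes were singled out after their values were seen.

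Of 10 histone genes 3 (30%) were higher and 2 (20%) lower, against 25.9% and 25.8% of all genes tested. Both genes of histone H3, HHT1 at 0.51 and HHT2 at 0.62, were higher, and both genes of histone H4, HHF1 at -0.67 and HHF2 at -0.38, were lower, although an H3 and an H4 gene share each promoter region. By the table totals none of the 10 histone genes was higher and 8 were lower. Only 54.4% of the 28-nt stretches of HHF1 and 73.4% of those of HHT2 occur once, so reads can be shared or lost between the copies, and the part of this in the difference was not tested. The 246 genes tested with more than 1 coding exon had a median log2 ratio of -0.00, against -0.07 for the 4852 with 1.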
